A study of Homo sapiens with 6 samples.

Results

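The genes of Polycomb repressive complex 2 (PRC2) were examined in KOPTK1, a cell line from human T-ALL (acute lymphoblastic leukaemia of T cells), after inhibition of CDK4 and CDK6. The 9 genes are EZH1, EZH2, EED, SUZ12, RBBP4, RBBP7, JARID2, PHF19 and MTF2, out of 19775 genes measured. They were read by every probe set, the unit that measures a transcript on these Affymetrix arrays, whose annotation names a single gene and that gene is one of the 9. These are 29 of 54613 probe sets, and 1 further probe set that names SUZ12 together with its pseudogene SUZ12P1 was left out. The cells were grown for 48 h with vehicle (3 arrays) or with 1 µM PD0332991, a CDK4/6 inhibitor also known as palbociclib (3 arrays), and the submitters call the replicates biological. PD0332991 was compared with vehicle, the only contrast of the design.

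PRC2 places methyl groups on lysine 27 of histone H3, a mark of silenced genes. EZH2 or its paralogue EZH1 is the catalytic subunit, EED reads the finished mark and SUZ12 holds the core together, while RBBP4 and RBBP7 are interchangeable histone-binding subunits. Accessory subunits guide the core to chromatin: the Polycomb-like proteins PHF19 and MTF2 define one form of the complex and JARID2 another. EZH2 is known as the form of dividing cells and EZH1 as that of resting cells, and loss-of-function mutations of EZH2, SUZ12 and EED are known in T-ALL.

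With PD0332991 the RNA of EZH2 and PHF19 fell most among the 9 genes, EED, RBBP7 and SUZ12 fell less, and JARID2 and MTF2 were slightly higher. EZH1 was slightly higher on its brightest probe set, but 3 of its 5 probe sets had log2 fold changes below 0. Represented by its brightest probe set over the 6 arrays, each gene was tested in a fit across all genes with limma, at a Benjamini-Hochberg adjusted p under 0.05. By this rule 5 of the 9 genes were lower, against 13.6% of all genes, and 3 were higher, against 15.6% of all genes. For each of the 9, vehicle and PD0332991 arrays did not overlap, against 43.0% of all genes. The median log2 fold change of the 9 was −0.32 and that of all genes 0.01. Over probe sets, 12 of 29 were lower and 3 higher, against 10.2% and 10.7% of all probe sets, and 23 of 29 had groups that did not overlap, against 36.7% of all. The counts of increases changed when 1 array was left out: 0 genes were higher without vehicle replicate 1 or 2 and 1 without PD0332991 replicate 1 or 3, and 0 or 1 probe sets were higher without any 1 of the 6 arrays. Counts of higher genes over all genes then ran from 2170 to 3171, against 3088 with all 6. All values are on the scale log2(intensity + 16), and in bulk RNA fewer cells that express a gene and less of its RNA per cell cannot be told apart.

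**Figure D1:**
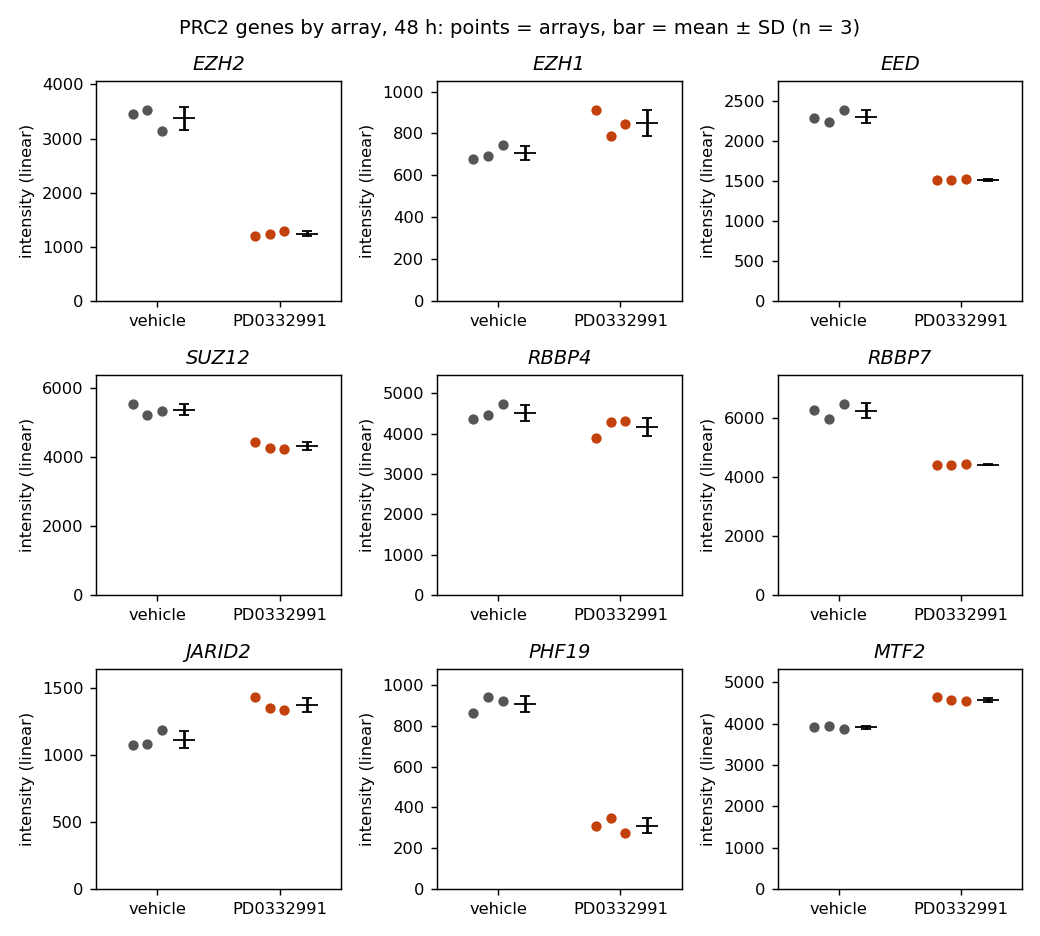
Deposited intensity (linear scale from 0) of the brightest probe set of each PRC2 gene on each array, vehicle in grey and PD0332991 in orange, with mean ± SD (n = 3). EZH2 and PHF19 lay far below vehicle, EED, RBBP7 and SUZ12 moderately below, and EZH1, JARID2 and MTF2 slightly above.

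The bases upstream of the transcription start are shown for both catalytic genes and both Polycomb-like genes, so that paralogues can be set side by side. The window of SUZ12, which has no paralogue among the 9 genes and held matches, is shown as well. The sequences are from RefSeq (GRCh38.p14), which gave 14 windows of 250 bases for the 9 genes. Each was searched on both strands for the E2F words TTTCCCGC, TTTGGCGC, TTTCGCGC and TTTGCCGC and for the cell cycle homology region words TTTGAA and TTCGAA, and matches are in capitals.
EZH2, chr7:148884292-148884541, minus strand: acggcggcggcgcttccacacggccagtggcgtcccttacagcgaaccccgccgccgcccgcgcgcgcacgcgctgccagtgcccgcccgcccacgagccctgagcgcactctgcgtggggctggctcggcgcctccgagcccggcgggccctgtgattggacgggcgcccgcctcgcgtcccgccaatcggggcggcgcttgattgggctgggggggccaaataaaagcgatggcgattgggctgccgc
EZH1, chr17:42745041-42745290, minus strand: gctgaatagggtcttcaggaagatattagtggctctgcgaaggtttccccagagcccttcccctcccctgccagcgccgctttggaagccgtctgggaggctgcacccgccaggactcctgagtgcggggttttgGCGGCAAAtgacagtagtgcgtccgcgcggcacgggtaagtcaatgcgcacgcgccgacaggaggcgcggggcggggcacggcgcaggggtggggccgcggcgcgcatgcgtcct
SUZ12, chr17:31936757-31937006, plus strand: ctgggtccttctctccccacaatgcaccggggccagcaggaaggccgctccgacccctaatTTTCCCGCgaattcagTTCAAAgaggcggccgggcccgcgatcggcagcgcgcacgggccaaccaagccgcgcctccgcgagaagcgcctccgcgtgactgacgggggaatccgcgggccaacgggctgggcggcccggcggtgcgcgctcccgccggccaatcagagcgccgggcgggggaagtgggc
PHF19, chr9:120877189-120877438, minus strand: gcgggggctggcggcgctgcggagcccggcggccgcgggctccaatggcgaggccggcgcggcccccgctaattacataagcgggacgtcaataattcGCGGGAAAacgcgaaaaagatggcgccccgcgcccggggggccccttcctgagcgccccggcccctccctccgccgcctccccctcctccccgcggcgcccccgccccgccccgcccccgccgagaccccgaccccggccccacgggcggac
MTF2, chr1:93079033-93079282, plus strand: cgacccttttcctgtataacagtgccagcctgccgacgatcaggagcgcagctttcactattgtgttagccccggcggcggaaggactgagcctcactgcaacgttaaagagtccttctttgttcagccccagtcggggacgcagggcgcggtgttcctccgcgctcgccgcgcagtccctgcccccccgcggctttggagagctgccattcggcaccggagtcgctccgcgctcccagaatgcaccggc
An E2F word was present in 3 of the 14 windows, against 2.79% of all 35116 windows of this length, and a cell cycle homology region word in 1, against 14.3%. The windows compared were not matched for base composition, and its part in these shares was not tested. All windows with a match are printed above. SUZ12 held TTTCCCGC starting 189 bases before the start and, not overlapping it, TTCAAA at 173 bases. PHF19 has 2 listed windows, and the one printed, of the start further upstream, held GCGGGAAA at 152 bases, while the other held no match. EZH1, slightly higher on its brightest probe set though its probe sets disagreed, held GCGGCAAA at 115 bases. Neither of the 2 EZH2 windows nor that of MTF2 held any of these words, nor did the unprinted windows of EED, RBBP4, RBBP7 and JARID2. This says only that these letters are not in these windows of 250 bases.

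EZH2, which encodes the main methyltransferase, had the largest decrease among the genes of the core. Its single probe set read 3456, 3531 and 3139 on the vehicle arrays and 1201, 1248 and 1291 on the PD0332991 arrays. Every PD0332991 array lay below every vehicle array. The means were 3375 ± 208 and 1246 ± 45.0 (both SD, n = 3), a log2 fold change of −1.42 (95% interval −1.59 to −1.26, adjusted p = 6.2e-05 in limma, SE 0.07), or 2.68-fold lower. Of all genes, 1.43% had a lower log2 fold change. The probe set of EZH2 is of a type (_s_at) that can match several transcripts, and no other probe set reads EZH2 here.

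EZH1, the second catalytic gene, moved little and its probe sets disagreed. The brightest read 679, 694 and 744 with vehicle and 913, 787 and 847 with PD0332991, so that the groups did not overlap. Its log2 fold change was 0.26 (95% interval 0.07 to 0.45, adjusted p = 0.048 in limma, SE 0.08), or 1.20-fold higher. This call was lost without vehicle replicate 1 (adjusted p = 0.143), 2 (0.136) or 3 (0.0508) and without PD0332991 replicate 1 (0.110) or 3 (0.118), and was kept without PD0332991 replicate 2. In the fit over all probe sets none of its 5 probe sets was called. The second brightest read 585, 578 and 616 with vehicle and 908, 676 and 792 with PD0332991, a log2 fold change of 0.40 (adjusted p = 0.056), while the 3 dimmer ones, at mean intensities of 180.3, 106 and 21.8, were at −0.11, −0.06 and −0.28. With the mean of the 5 probe sets in place of the brightest, EZH1 was at 0.04 (adjusted p = 0.769).

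The EZH2 signal was lower relative to EZH1 on the PD0332991 arrays than on the vehicle arrays. The difference of log2 values, EZH2 minus EZH1, was 2.32, 2.32 and 2.05 with vehicle and 0.39, 0.65 and 0.60 with PD0332991. All PD0332991 arrays lay below all vehicle arrays. The means were 2.23 ± 0.15 and 0.55 ± 0.14 (both SD, n = 3), a change of −1.68, which is a 3.21-fold lower ratio. A two-sided exact permutation test gave p = 0.1, the smallest that 3 against 3 arrays allow, and also 0.1 after adjustment over the 3 paralogue pairs tested. Set against each of the other 4 EZH1 probe sets, the change ran from −1.15 to −1.82. Levels of different probes cannot be compared, so the difference does not show which of the paralogues is the more abundant.

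**Figure D2:**
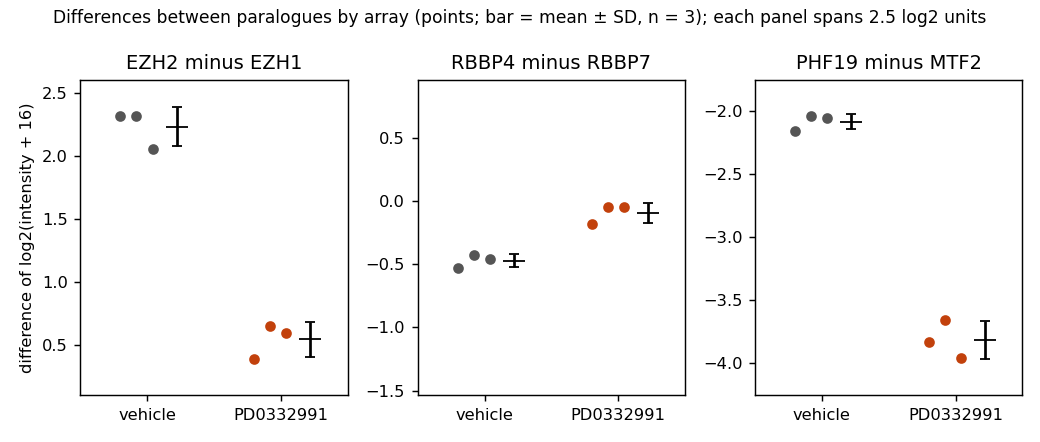
Difference of log2(intensity + 16) between paralogues on each array, with mean ± SD (n = 3), in panels that each span 2.5 log2 units. EZH2 minus EZH1 and PHF19 minus MTF2 fell by 1.68 and 1.73 and RBBP4 minus RBBP7 rose by 0.38, with no overlap of the groups in any panel.

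EED, the reader of methylated lysine 27, fell on both of its probe sets. The brighter read 2290.2, 2236 and 2395 with vehicle and 1514, 1511 and 1529.85 with PD0332991, and the PD0332991 arrays were all lower and nearly equal. The means of 2307 ± 80.6 and 1518 ± 10.2 (both SD, n = 3) gave a log2 fold change of −0.60 (adjusted p = 5.5e-04 in limma, SE 0.05), or 1.51-fold lower. The dimmer probe set, at 109 with vehicle, gave −0.57 (adjusted p = 0.0080).

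SUZ12, the scaffold subunit, had the smallest of the called decreases. Its arrays read 5547, 5225 and 5332 with vehicle and 4445, 4259 and 4227 with PD0332991, with no overlap. The log2 fold change was −0.32 (adjusted p = 0.0076 in limma, SE 0.06), or 1.24-fold lower. Of its 2 dimmer probe sets, one at 116 with vehicle gave −0.75 (adjusted p = 0.0024) and one at 42.4 gave 0.18 (adjusted p = 0.34).

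The histone-binding genes RBBP7 and RBBP4 differed on their brightest probe sets. RBBP7, read by 1 probe set, was at 6274, 5993 and 6507 with vehicle and 4423, 4426 and 4444 with PD0332991. Every PD0332991 array was lower, and the log2 fold change was −0.50 (adjusted p = 0.0013 in limma, SE 0.06), or 1.41-fold lower. RBBP4 read 4356, 4451 and 4744 with vehicle and 3903, 4289 and 4308 with PD0332991. Its groups nearly touched, and the log2 fold change of −0.12 (SE 0.07, 95% interval −0.28 to 0.05) did not pass (adjusted p = 0.276).

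Other probe sets of RBBP4 did fall. All 6 had log2 fold changes below 0, and 3 were called in the fit over all probe sets. One went from 652, 649 and 604 to 351, 342 and 306, a log2 fold change of −0.90 (adjusted p = 7.0e-04), and the other called ones were at −0.54 (adjusted p = 0.0016) and −0.50 (adjusted p = 0.0051). The uncalled ones, at −0.12, −0.13 and −0.07, include the 2 brightest, whose types (_s_at and _x_at) can match several transcripts. With the mean of its probe sets RBBP4 was at −0.38 (adjusted p = 0.0022). RBBP4 minus RBBP7 changed by 0.38 (two-sided exact permutation p = 0.1) on the brightest probe sets and by 0.12 with the mean of probe sets. Which transcripts each probe set reads was not tested.

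**Figure D3:**
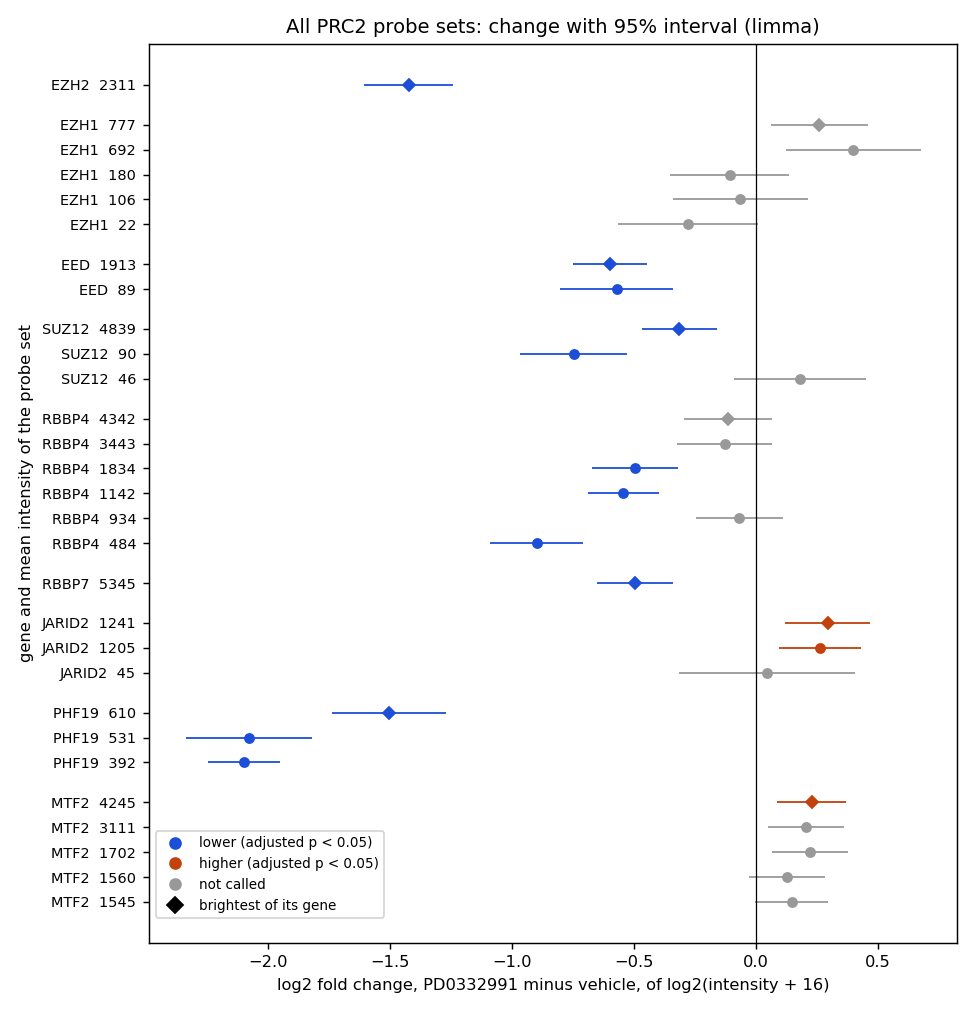
Log2 fold change with its 95% interval (limma, all probe sets) for the 29 PRC2 probe sets, labelled by gene and mean intensity, with a diamond for the brightest of each gene. Blue and orange mark lower and higher at an adjusted p under 0.05, and the probe sets of SUZ12, RBBP4 and EZH1 are the most spread out, from −0.75 to 0.18 for SUZ12.

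The Polycomb-like genes PHF19 and MTF2, whose proteins bind the core at the same place and recognise methylated lysine 36 of histone H3, went opposite ways. PHF19 read 864, 939.95 and 921 with vehicle and 309.6, 347 and 276 with PD0332991. The groups were far apart, with means of 908 ± 39.7 and 311 ± 35.4 (both SD, n = 3). Its log2 fold change was −1.51 (95% interval −1.73 to −1.28, adjusted p = 1.4e-04 in limma, SE 0.09), or 2.84-fold lower, and 1.30% of all genes had a lower one.

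The other 2 PHF19 probe sets fell further. One went from 845, 918 and 841 to 165, 211 and 206, 4.23-fold lower, and one from 632, 657 and 647 to 136, 142 and 136, 4.29-fold lower. Their log2 fold changes were −2.08 (adjusted p = 1.0e-04) and −2.10 (adjusted p = 4.0e-05), so the value of the brightest is the smallest of the 3.

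MTF2 was slightly higher on all of its probe sets. The brightest read 3913, 3932 and 3881 with vehicle and 4638, 4565 and 4539 with PD0332991, so that every PD0332991 array exceeded every vehicle array. The means of 3909 ± 26.0 and 4581 ± 51.1 (both SD, n = 3) gave a log2 fold change of 0.23 (adjusted p = 0.016 in limma, SE 0.05), or 1.17-fold higher. The other 4 probe sets were at 0.13 to 0.22 with groups that did not overlap, and none of these 4 was called. The call of MTF2 was lost without vehicle replicate 1 (adjusted p = 0.0575) or 2 (0.0599) or PD0332991 replicate 3 (0.0514), and with arrays centred on their medians (0.0635).

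PHF19 minus MTF2 on the log2 scale was −2.16, −2.05 and −2.06 with vehicle and −3.84, −3.66 and −3.97 with PD0332991. The change of −1.73, a 3.33-fold lower ratio, was of the size of that of EZH2 minus EZH1, and its two-sided exact permutation p was likewise 0.1.

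JARID2, which recruits the other form of PRC2, was also slightly higher. Its brightest probe set read 1073, 1083 and 1183 with vehicle and 1427, 1345 and 1333 with PD0332991, without overlap. The log2 fold change was 0.29 (adjusted p = 0.018 in limma, SE 0.07), or 1.23-fold. A second probe set of nearly equal brightness gave 0.26 (adjusted p = 0.044), and a dim one, at 44.1 with vehicle, gave 0.04 with overlapping groups. The call was lost without vehicle replicate 1 (adjusted p = 0.0681) or 2 (0.0703) or PD0332991 replicate 1 (0.0525), and with _x_at and _s_at probe sets left out, when the dim one stood for the gene (0.871).

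The remaining partners of PRC2 were lower or not called. Of 6 measured, 3 fell and 0 rose in limma at an adjusted p under 0.05, against 13.6% and 15.6% of all genes. Before adjustment 3 fell and 1 rose, while the median log2 fold change was −0.19. LCORL, whose locus encodes a PRC2 cofactor, went from 996 to 609, a log2 fold change of −0.70 (adjusted p = 0.0020 in limma, SE 0.09). PHF1, the third Polycomb-like gene, was at −0.29 (adjusted p = 0.023), and AEBP2, the partner of JARID2 in its form of the complex, was at −0.26 (adjusted p = 0.015). Averaged over its probe sets, AEBP2 was at −0.59 (adjusted p = 0.0018). PHF1 was no longer called when vehicle replicate 2 or 3 or PD0332991 replicate 2 or 3 was left out (adjusted p 0.0545 to 0.0836), and AEBP2 without vehicle replicate 1 (0.0557) or PD0332991 replicate 3 (0.0560). Without PD0332991 replicate 3, 1 partner was lower.

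Polycomb repressive complex 1, which binds the mark set by PRC2 and ubiquitinates histone H2A, had 21 measured genes in its list. Of these 6 fell and 3 rose, against 13.6% and 15.6% of all genes, so that the share of higher genes was near the background, with a median of −0.0016, and 4 others were not analysed here. CBX2, a chromodomain reader of the mark, fell from 742 ± 18.5 to 262 ± 13.4 (both SD, n = 3), a log2 fold change of −1.45 (adjusted p = 3.9e-05 in limma, SE 0.06). Averaged over its probe sets, CBX2 was at −0.64 (adjusted p = 4.7e-04). PCGF6, of a variant form of the complex, and SCML2 fell by 0.79 and 0.77 on the log2 scale. CBX6, another chromodomain gene, rose by 0.72 (SE 0.09). RING1, which encodes a ubiquitin ligase subunit, was at 0.33 and was not called with vehicle replicate 1 or 2 or PD0332991 replicate 2 or 3 left out (adjusted p 0.0562 to 0.0836). AUTS2 was at 0.20, lost its call without any 1 of the 6 arrays (adjusted p 0.0726 to 0.102), and was at −0.080 with the mean of its probe sets. When any 1 of the 4 arrays that the call of RING1 needed was left out, the count of higher genes was 1. In the complex that removes the mark of PRC1 from histone H2A, 1 of 5 measured genes fell and 0 rose in limma (1 and 1 before adjustment at the same threshold), against 13.6% and 15.6% of all genes, with a median of −0.06. The one that fell was FOXK2, a transcription factor gene, at −0.55, which became −0.30 (adjusted p = 0.0084) when its probe sets were averaged. BAP1, which encodes the deubiquitinase of this complex, was not analysed here.

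Among enzymes that oppose PRC2 or remove its mark, NSD2 fell and KDM6B rose. Of 12 measured, 3 fell and 2 rose, against 13.6% and 15.6% of all genes, with a median of 0.04, and the share of higher genes was near the background. NSD2, which methylates lysine 36 of histone H3, went from 3132 ± 129 to 1090.4 ± 41.5 (both SD, n = 3), a log2 fold change of −1.51 (adjusted p = 3.5e-05 in limma, SE 0.06), and its other 5 probe sets were lower too. Its relative NSD3 was at −0.52 and KMT2A, a methyltransferase for lysine 4, at −0.30 (adjusted p = 0.011). KDM6B, a demethylase that removes the PRC2 mark, rose from 179 ± 14.0 to 318 ± 11.9 (both SD, n = 3), a log2 fold change of 0.78 (adjusted p = 6.2e-04 in limma, SE 0.07). The related demethylase gene KDM6A was at 0.14 (adjusted p = 0.23), named after its value was seen. Of its 3 other probe sets, 1 was called lower and 0 higher. The acetyltransferase gene EP300 was at 0.29 (adjusted p = 0.035) and was not called with PD0332991 replicate 1 or 3 or any 1 vehicle array left out (adjusted p 0.0545 to 0.109), which left 1 higher gene in each case.

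RBBP4 and RBBP7 also serve in other complexes, of whose 25 measured genes 7 fell and 4 rose, with a median of −0.06. Of all genes 13.6% fell and 15.6% rose, and the share of higher genes was near the latter. The largest decreases were in the chromatin assembly factor genes CHAF1B at −1.94 (SE 0.13) and CHAF1A at −1.83 (SE 0.08), and in LIN9 of the MuvB complex at −1.55. CHAF1A was at −0.93 (adjusted p = 0.032) with _x_at and _s_at probe sets left out. LIN9 was read on a probe set of the _x_at type, its 2 others were not called, and it was at −0.42 with the mean of its probe sets. With _x_at and _s_at probe sets left out it was at 0.26 (adjusted p = 0.254). SIN3B, a corepressor scaffold, rose by 0.52. MTA3 at 0.29 and BPTF at 0.29 were called higher, but each had another probe set that was lower, beside 2 more of BPTF that were higher, and with the mean of probe sets MTA3 was at −0.21 and BPTF at 0.01. The count of higher genes was 1 without vehicle replicate 1 or PD0332991 replicate 3, and 2 without vehicle replicate 2 or PD0332991 replicate 1 or 2. MTA3 kept its call only without vehicle replicate 2 (otherwise adjusted p 0.05003 to 0.1005), and BPTF only without vehicle replicate 3 or PD0332991 replicate 2 (otherwise 0.0555 to 0.0800).

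Most HOX genes, classical carriers of the PRC2 mark, were dim on these arrays. Of 28 measured, 5 were among the brighter genes, those above the median gene in their brighter group. When brighter genes alone were tested, 2 of these 5 were higher and 0 lower. In that test 3336 of all 9887 brighter genes were higher and 2936 lower, so calls were far more frequent than in the main fit. Of the 28, 1 was lower and 2 higher, against 13.6% and 15.6% of all genes, with a median of 0.0076, and groups did not overlap for 5 of the 28, against 43.0% of all genes. HOXC4 rose from 577 ± 13.9 to 718 ± 23.8 (both SD, n = 3), a log2 fold change of 0.31 (adjusted p = 0.0083 in limma, SE 0.06). HOXB2 was at 0.33 (adjusted p = 0.015) and was not called with vehicle replicate 1 or 2 or PD0332991 replicate 2 left out (adjusted p 0.0506 to 0.0591), where 1 gene was higher. HOXC8 was at −0.32 from an intensity of 20.9, at −0.60 with a pseudocount of 1 and at −0.13 with 64, and was not called with PD0332991 replicate 1 or 2 or any 1 vehicle array left out (adjusted p 0.0639 to 0.117), where 0 were lower. The other 11 HOX genes were not analysed here, and histone methylation itself was not measured.

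**Figure D4:**
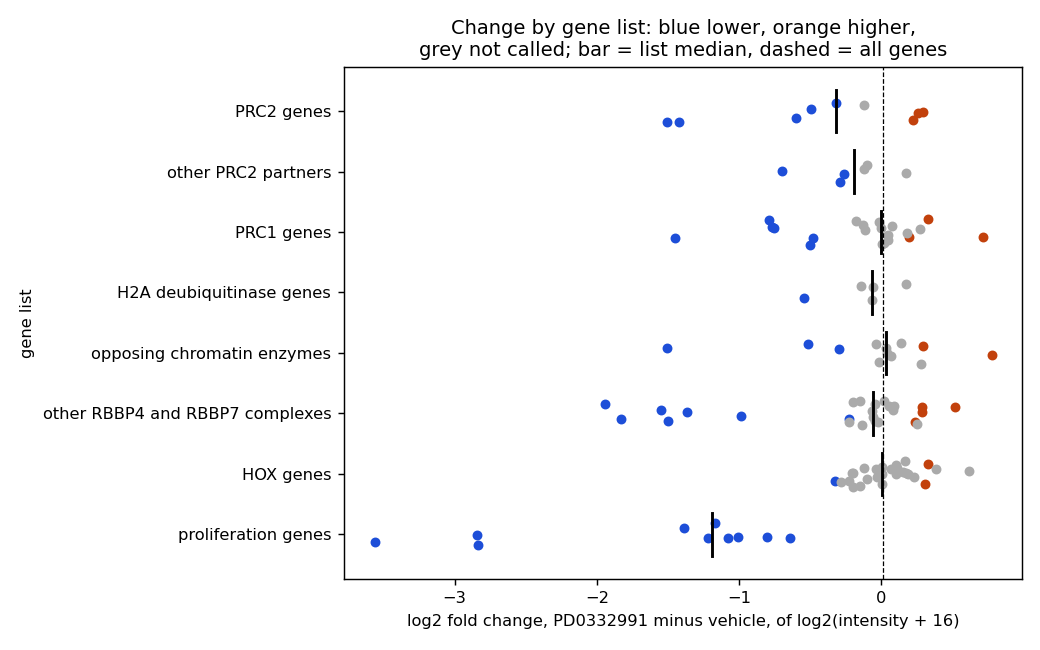
Log2 fold change of each measured gene by list (points; blue lower, orange higher, grey not called at an adjusted p under 0.05), with the list median as a bar and the median of all genes as a dashed line. PRC2 genes spread from −1.51 to 0.29, and all 10 proliferation genes lie below −0.6.

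Genes of proliferation were lower, as were 5 of the 9 PRC2 genes, while 3 of the 9 were higher. All 10 replication and division genes of a short list were lower in limma and 0 were higher, against 13.6% and 15.6% of all genes, before adjustment as well, with a median of −1.19 and a range of −3.56 for MKI67, which encodes Ki-67, to −0.64. EZH2, PHF19, CBX2 and NSD2 fell by amounts within that range, whereas SUZ12, EED and RBBP7 fell by less than its smallest member. The part of proliferation in the PRC2 results was not tested.

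The genes most like EZH2 over the 6 arrays, by the distance between log2 values taken relative to the vehicle mean among 9887 brighter genes, were PARPBP (distance 0.06), MZT1 (0.08), GUCY1B1 (0.09), POLA1 (0.11) and CHTF18 (0.12). Their log2 fold changes lay between −1.44 and −1.41. POLA1 encodes the catalytic subunit of DNA polymerase alpha and MZT1 a part of the microtubule nucleation complex. Those most like EZH1 were NPEPPS (0.06), ZFAND6 (0.07), EP300 (0.08), UBXN4 (0.08) and NXPE3 (0.08), with log2 fold changes of 0.22 to 0.29. With the mean of probe sets NPEPPS, ZFAND6 and NXPE3 were at 0.13, 0.14 and 0.14, and ZFAND6 was at 0.03 with _x_at and _s_at ones left out.

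The labelled cell type was checked by markers. All 8 T-cell genes, among them CD3D at a mean of 7861, lay above the median gene. Their summed intensity was 22591 to 24932 with vehicle and 28196 to 29448 with PD0332991, with 5 of 8 called higher. Of all genes 15.6% were called higher and 13.6% lower. Sums for other cell types were 366 to 431 and 594 to 759.5 for 4 B-cell genes, of which CD79A was higher (275 to 543), 246 to 261 and 215 to 229.7 for 5 myeloid genes, of which MPO was lower, 185 to 234 and 176 to 229.8 for 2 erythroid genes, and 196 to 242 and 194 to 215 for 4 fibroblast genes. CD14 was the dimmest marker, at a mean of 5.20, and no marker was listed at 0. The part of these shifts in the PRC2 results was not tested.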

How the data were processed

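Per the labels, the material of each sample was total RNA and the array label was biotin. Each sample was read on a human Affymetrix array, 6 in all. The authors deposited linear probe set intensity values; how they were summarised and scaled is not given in the sources used. They held no detection calls, array medians were 49.1 to 54.3, and 25.5% of values lay below 16, so a pseudocount of 16 was added before log2 and understates changes of dim genes. No further normalization was applied.

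The 62 control probe sets were left out. The platform annotation of August 2016 gave 1 symbol for 41091 of 54613 probe sets and several for 1801, the other 11721 being unnamed here, and symbols were updated by gene ID through RefSeq (54 unmatched, symbol kept). The comparison used lmFit and eBayes of limma 3.58.1 (R 4.3.3; two-sided, with 4 residual degrees of freedom), over all genes by the brightest probe set and again over all probe sets, with Benjamini-Hochberg adjustment over each. Every adjusted p is from limma. The fit was tested on simulated data of 19775 genes, recovering 24, 45, 50 and 50 of 50 genes changed by 0.5, 1, 2 and 3 on the log2 scale and calling 12 of 19575 unchanged ones. Far fewer genes changed there than the 29.3% called in these data. The adjustment depends on that share, so these rates do not carry over to this comparison. Paralogue differences were tested with exact permutations.

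The members and lists, and the motifs, were chosen with earlier results of these data known. Named were all members, up to 3 called genes per list and direction with the largest change, MKI67, and the 5 genes nearest to EZH2 and to EZH1. Alternatives were a replicate block, each array left out, quantile or median scaling, pseudocounts of 1 and 64, brighter genes only, other choices of probe set, and eBayes with trend or robust. Same-numbered arrays of the groups deviated together at low r of 0.0033, 0.08 and 0.08 across genes, although 5 of 6 arrays deviated most like the array of their own number. The labels state no shared batch, so the main fit did not take the numbers as pairs. With the number as a block, EZH1, JARID2 and MTF2 were not called in limma (adjusted p 0.094, 0.062 and 0.063). PHF1, AUTS2, EP300, MTA3, BPTF, HOXC8, NPEPPS and ZFAND6 also lost their calls with the block (adjusted p 0.052 to 0.096). Figures were drawn with matplotlib 3.10.9.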

Additional observations from a re-analysis of the deposited data

How the results depend on the processing

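The 5 decreases (EZH2, EED, SUZ12, RBBP7, PHF19) kept their direction and call under every alternative run for them, where EZH2 had no probe set left once _x_at and _s_at ones were dropped. The increases are small, and their calls were often lost when 1 array was left out. Over all genes 2170 to 3171 were then higher, against 3088 with all 6 arrays. MTF2 lost its call without vehicle replicate 1 although its log2 fold change stayed at 0.23. Whether a lost call was due to the array itself or to fewer arrays was not tested. Without 1 array in turn the count of higher PRC2 genes was 0 to 3 and of higher PRC2 probe sets 0 to 1, that of lower partners 1 to 3, of higher PRC1 genes 1 to 3, of higher opposing enzymes 1 to 2, of higher genes of the other RBBP4 and RBBP7 complexes 1 to 4, of lower HOX genes 0 to 1 and of higher ones 1 to 3. With the replicate number as a block, 0 PRC2 genes, 0 PRC2 probe sets, 1 opposing enzyme and 1 gene of the RBBP4 and RBBP7 complexes were higher and 0 HOX genes lower. The block took the counts of all genes from 2698 lower and 3088 higher to 2273 and 2520, EZH2 minus EZH1 stayed at −1.68, and 5 of 6 arrays deviated most like the array of their own number.

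Quantile normalization gave 7 higher PRC2 probe sets, a pseudocount of 64 gave 7, brighter probe sets only 7, eBayes with trend 8 and a pseudocount of 1 gave 0. Quantile normalization, the pseudocount of 64, brighter genes only and the trend each gave 1 higher partner and 5 higher PRC1 genes, and all but the pseudocount gave 1 higher gene of the H2A deubiquitinase list. Lower HOX genes numbered 0 with median centring, the pseudocount of 64, brighter genes and the trend, and 2 with the mean of probe sets and with _x_at and _s_at ones dropped. Median centring gave 2 higher genes of the RBBP4 and RBBP7 complexes, and the mean of probe sets 1 higher opposing enzyme. With _x_at and _s_at probe sets dropped, 1 PRC2 gene was higher, 2 PRC1 genes lower and 1 higher, and 1 opposing enzyme higher, with fewer genes measured. AUTS2 and MTA3 reversed to −0.080 and −0.21 with the mean of probe sets, and LIN9 to 0.26 with _x_at and _s_at ones dropped. The causes were not tested. EZH2 minus EZH1 ran from −1.77 to −1.47, RBBP4 minus RBBP7 from 0.12 to 0.42 and PHF19 minus MTF2 from −2.08 to −1.60 over their 12 alternatives. Signal near the pseudocount limits the dim EZH1, SUZ12 and JARID2 probe sets.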
